A study of Homo sapiens with 24 samples.

Results

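The transcripts of 10 genes of the PI3K and FOXO axis were followed in a pair of human cancer cell lines during inhibition of mutant BRAF. The 10 genes were the insulin receptor substrates IRS1 and IRS2, the transcription factors FOXO1, FOXO3 and FOXO4, the kinase inhibitor PIK3IP1, and CCNG2, KLHL24, TRIM63 and TXNIP. They were chosen by symbol with earlier results of these data known, so their counts of calls are not a test of an excess over all probes. Every probe annotated to one of them was taken: 15 probes of 47231 on the array, with 4 for FOXO3, 3 for CCNG2 and 1 for each of the others. Of these, 14 were detected above background on at least 3 of 24 arrays and were tested among 26673 such probes. The probe left out, FOXO3 ILMN_1687940, was detected on 0 arrays.

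The arrays covered 2 lines, SW1736 from a thyroid cancer and SKMEL28 from a melanoma, both carrying the BRAF V600E mutation and grown in RPMI medium with serum. Each line was measured without drug (0 h) and after 1, 6 and 48 h of 2 µM vemurafenib, an inhibitor of mutant BRAF, with 3 arrays at each time. The 0 h arrays were the untreated comparison for all 3 times, so that drug and time in culture cannot be told apart, and the comparisons at 1, 6 and 48 h share those arrays. Each tumour type was represented by 1 line, and no label states that a group's 3 arrays were grown as separate cultures. The p-values therefore reflect variation among these samples only, which may be technical in part.

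Insulin and growth factor receptors use IRS1 and IRS2 as docking adaptors to recruit PI3K, whose product activates the kinase AKT. AKT phosphorylates FOXO1, FOXO3 and FOXO4, which then bind 14-3-3 proteins and leave the nucleus; when AKT activity is low, FOXO factors stay in the nucleus and transcribe genes of cell-cycle arrest, atrophy, and receptor signalling itself. The last group includes IRS2, through which the pathway feeds back on its own input.

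Levels are log2 intensities after background correction and quantile normalization. A small constant was added to every intensity before the log was taken, so changes of dim probes are understated. A probe counted as detected on an array when its detection p was below 0.05, and a change was called at an adjusted p below 0.05 from limma (Benjamini-Hochberg over all 26673 probes). Between 36.8% and 42.0% of probes were detected per array, and replicate arrays correlated at r of at least 0.976. The median SD between replicates was 0.297 in SW1736 and 0.214 in SKMEL28, so each line was fitted alone for its own changes, and a given change was less readily called in SW1736.

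The labelled cell types were checked against marker genes. All 12 SW1736 arrays detected the thyroid factors PAX8 and FOXE1, but none detected TG, NKX2-1 or SLC5A5, so these markers of differentiated thyroid cells were not seen. Of 7 melanocyte markers with a probe, 5 were detected on none of the SW1736 arrays, with MITF on 11 of 12, and 6 were detected on all 12 SKMEL28 arrays. The pathway downstream of BRAF was read through DUSP6, a phosphatase gene switched on by ERK, which changed at 1 h by -1.77 ± 0.23 in SW1736 (log2 change ± SE, limma adjusted p = 0.018) and by -2.19 ± 0.19 in SKMEL28 (adjusted p = 0.0003).

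**Figure D1:**
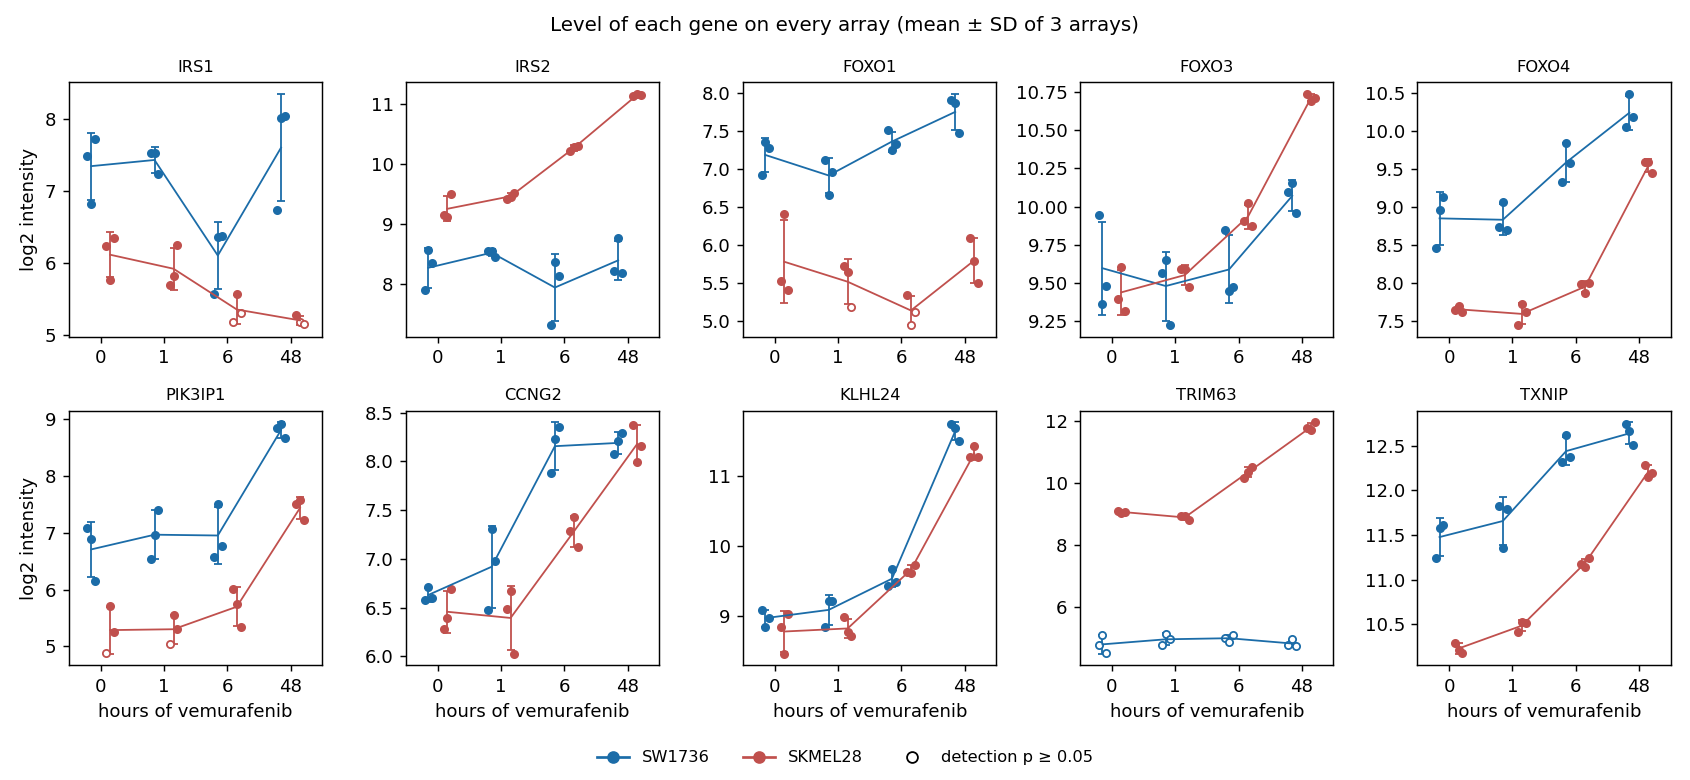
Log2 intensity (y axis, scaled separately in each panel) of each gene's brightest probe against hours of vemurafenib (x axis); points are single arrays, lines join means of 3 arrays, bars are SD, and open points have a detection p of 0.05 or more. KLHL24 and PIK3IP1 reached their highest means at 48 h in both lines, while TRIM63 was detected on none of the SW1736 arrays and on all SKMEL28 arrays.

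The 10 genes were called mainly as higher and mainly at 48 h, few were called by 6 h in SW1736, and none was called at 1 h in either line. With 1 probe per gene, the brightest, 5 genes rose and 0 fell at 48 h in SW1736, and 8 rose and 1 fell in SKMEL28. At 6 h, 2 rose in SW1736 (CCNG2 and TXNIP), and 6 rose and 1 fell in SKMEL28. The median change at 1, 6 and 48 h was 0.12, 0.24 and 1.16 over the 9 genes detected in SW1736, TRIM63 being below background there, and -0.02, 0.66 and 1.90 over the 10 genes in SKMEL28, against medians of all 26673 probes between 0.00 and 0.03. RNA of whole cultures was measured, so fewer cells with a transcript and less transcript per cell cannot be told apart.

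By probe, 6 of 14 were called higher and 0 lower at 48 h in SW1736, where 9.29% and 9.01% of all probes were, and 11 of 14 in SKMEL28, where 19.4% were. The single lower call in SKMEL28 was IRS1, against 18.1% of all probes called lower. At 6 h, 2 of 14 probes were called higher and 0 lower in SW1736, against 0.716% and 1.16% of all, and 6 of 14 in SKMEL28, against 3.45%; 1 of 14 was called lower in SKMEL28, against 4.38%. At 1 h, limma called 0 of 14 in SW1736, against 0.0187% of all in either direction, with 0 at an unadjusted p under 0.05; in SKMEL28 it called 0, against 0.165%, with 1 (TXNIP) at an unadjusted p under 0.05. The split of calls over all probes moved with the scaling. In SW1736, 191 probes were higher and 310 lower at 6 h with quantile normalization, and 102 and 343 with median scaling; at 48 h the splits were 2477 and 2402, and 1682 and 2664. In SKMEL28 they were 920 and 1167, and 332 and 1387 at 6 h, and 5180 and 4820, and 3518 and 4963 at 48 h. Median scaling moved the median of all probes furthest at 6 h in SKMEL28, to -0.10.

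**Figure D2:**
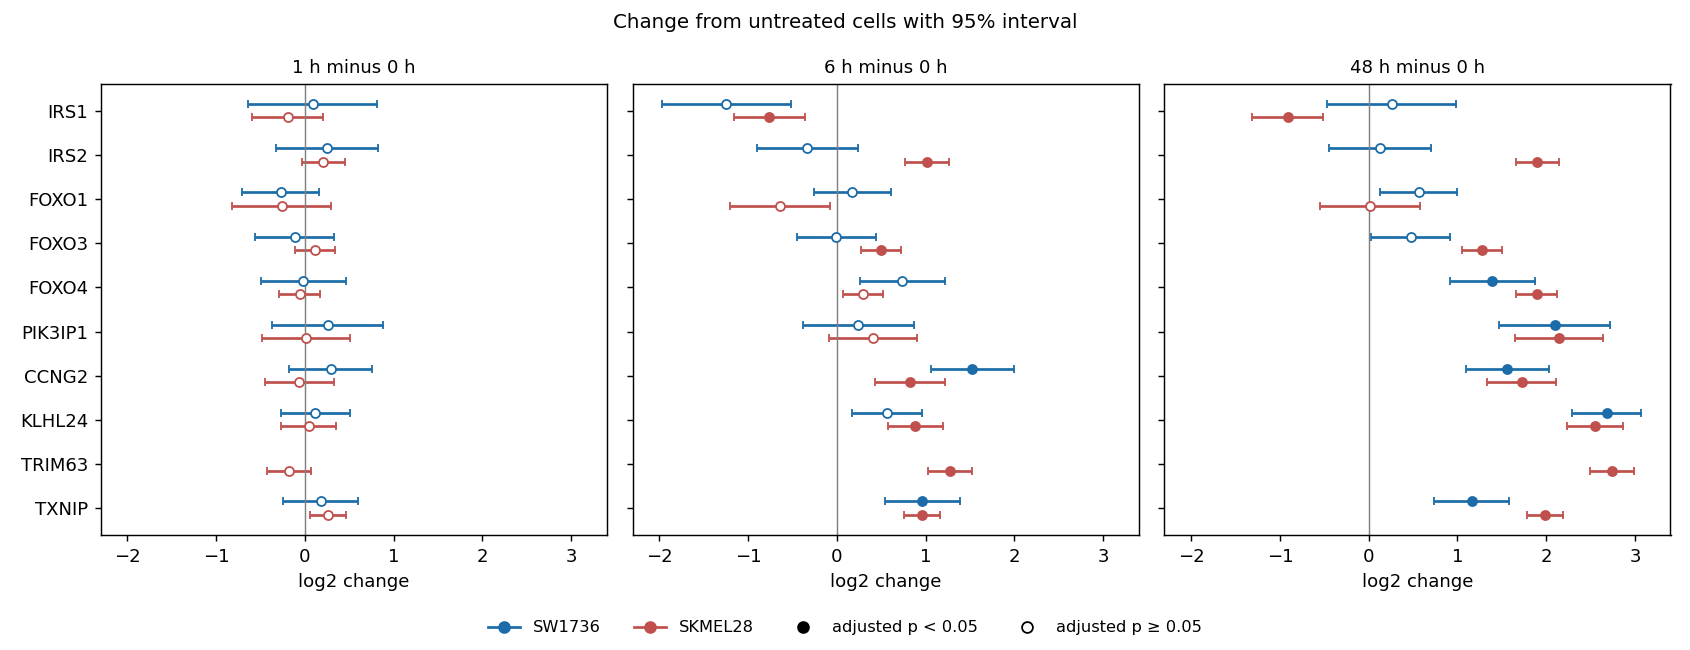
Log2 change from 0 h at 1, 6 and 48 h (panels, x axis) for the brightest probe of each gene (rows), with 95% intervals; filled points have a limma adjusted p below 0.05, and TRIM63, below background in SW1736, has no point for that line. No point is filled at 1 h, and at 48 h the filled points of both lines lie to the right of 0 except IRS1 in SKMEL28.

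The 2 receptor substrates took different courses. IRS2 rose in SKMEL28 and showed no called change in SW1736. IRS1 fell in SKMEL28 at both late times. In SW1736 IRS1 was lowest at 6 h and higher again at 48 h, with no called change from 0 h. Both encode adaptors that carry the signal of insulin and insulin-like growth factor receptors to PI3K; in mouse liver, IRS2 is a FOXO target.

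IRS2 in SW1736 had log2 intensities of 7.90, 8.55 and 8.34 at 0 h, 8.55, 8.55 and 8.45 at 1 h, 7.31, 8.37 and 8.13 at 6 h, and 8.22, 8.76 and 8.18 at 48 h. The SW1736 groups overlapped at each time, with changes of -0.33 ± 0.27 at 6 h (limma adjusted p = 0.678) and 0.12 ± 0.27 at 48 h (adjusted p = 0.823, 95% interval from -0.45 to 0.70). In SKMEL28 it had 9.14, 9.11 and 9.49 at 0 h, 9.41, 9.45 and 9.51 at 1 h, 10.22, 10.28 and 10.30 at 6 h, and 11.13, 11.16 and 11.15 at 48 h. Every array at 6 h lay above every array at 0 or 1 h, and every array at 48 h above those. The changes from 0 h were 1.02 ± 0.11 at 6 h (2.02-fold, limma adjusted p = 0.000144) and 1.90 ± 0.11 at 48 h (3.74-fold, adjusted p = 9.4e-08).

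IRS1 in SW1736 had log2 intensities of 7.48, 6.82 and 7.73 at 0 h, 7.53, 7.53 and 7.23 at 1 h, 5.57, 6.36 and 6.37 at 6 h, and 6.74, 8.02 and 8.05 at 48 h. All 3 arrays at 6 h were below all others, but the difference from 0 h, -1.24 ± 0.34, missed the threshold (limma adjusted p = 0.0862). It passed with a shared spread (limma adjusted p = 0.0120), with a trended prior (0.0186) and without the first 48 h array (0.0297). The mean was 7.34 at 0 h and 7.60 at 48 h, and that difference was not called. The 48 h arrays exceeded the 6 h arrays by 1.50 ± 0.34 (adjusted p = 0.00783), a call lost without the third SW1736 arrays (adjusted p = 0.0765). In SKMEL28, IRS1 was dimmer, with 6.23, 5.76 and 6.35 at 0 h, 5.69, 5.81 and 6.25 at 1 h, 5.18, 5.57 and 5.30 at 6 h, and 5.27, 5.18 and 5.15 at 48 h. At 6 h and at 48 h, 1 of 3 arrays detected it. Its changes there were -0.76 ± 0.18 at 6 h (limma adjusted p = 0.024) and -0.91 ± 0.18 at 48 h (adjusted p = 0.00169); the call at 6 h was lost when the lines shared 1 spread (adjusted p = 0.189) and without any of 4 arrays, replicate 1 or 3 of 0 h or of 6 h, with adjusted p of 0.0890, 0.0970, 0.0843 and 0.0734 in that order.

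Of the 3 FOXO transcription factors, FOXO4 rose in both lines, FOXO3 rose in SKMEL28, and FOXO1 had no called change. They share a forkhead DNA-binding domain and are regulated mainly by phosphorylation and location of the protein, which these arrays do not measure.

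FOXO4 in SW1736 had log2 intensities of 8.45, 8.96 and 9.12 at 0 h, 8.73, 9.06 and 8.69 at 1 h, 9.33, 9.84 and 9.57 at 6 h, and 10.04, 10.48 and 10.18 at 48 h. In SKMEL28 it had 7.64, 7.69 and 7.61 at 0 h, 7.44, 7.71 and 7.61 at 1 h, 7.98, 7.86 and 8.0 at 6 h, and 9.59, 9.59 and 9.45 at 48 h. In both lines the 6 h arrays already lay above the 0 h arrays, without a call: 0.74 ± 0.22 in SW1736 (limma adjusted p = 0.131) and 0.30 ± 0.10 in SKMEL28 (adjusted p = 0.114). The SW1736 change at 6 h passed with the authors' deposited values (limma adjusted p = 0.0301), without background correction (0.0298), with a shared spread (0.0133) and with a trended prior (0.0444). At 48 h the change was 1.39 ± 0.22 in SW1736 (2.62-fold, adjusted p = 0.00044) and 1.89 ± 0.10 in SKMEL28 (3.71-fold, adjusted p = 5.09e-08). The 48 h level differed from the 6 h level by 0.65 ± 0.22 in SW1736 (adjusted p = 0.0708) and 1.59 ± 0.10 in SKMEL28 (adjusted p = 3.08e-07). The SW1736 difference passed the threshold without background correction and with the authors' deposited values (adjusted p = 0.0120 in both), with a shared spread (0.00907) and with a trended prior (0.0264).

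FOXO3 by its brightest probe, ILMN_1681703, had log2 intensities of 9.94, 9.36 and 9.48 at 0 h, 9.57, 9.65 and 9.22 at 1 h, 9.85, 9.45 and 9.47 at 6 h, and 10.10, 10.16 and 9.96 at 48 h in SW1736. In SKMEL28 the same probe gave 9.40, 9.60 and 9.32 at 0 h, 9.59, 9.59 and 9.47 at 1 h, 9.91, 10.02 and 9.87 at 6 h, and 10.74, 10.69 and 10.71 at 48 h. All SKMEL28 arrays at 6 h exceeded those at 0 h, and those at 48 h were higher again. The SKMEL28 changes were 0.50 ± 0.10 at 6 h (limma adjusted p = 0.011) and 1.28 ± 0.10 at 48 h (2.42-fold, adjusted p = 1.34e-06). Median scaling ended the 6 h call, giving 0.28 (adjusted p = 0.432), as did a spread shared by the lines (adjusted p = 0.0978) and leaving out the third 0 h array (adjusted p = 0.0520). In SW1736 the 48 h change was 0.47 ± 0.21 (limma adjusted p = 0.14), although the 3 arrays at 48 h lay above those at 0 h. This change passed the threshold with the authors' deposited values (adjusted p = 0.0473), without background correction (0.0475) and with a shared spread (0.0330).

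The second FOXO3 probe, ILMN_1844692, followed the first: its 48 h change was 0.53 ± 0.25 in SW1736 (limma adjusted p = 0.161) and 1.09 ± 0.15 in SKMEL28 (adjusted p = 7.89e-05). The third, ILMN_1712515, was detected on 4 of 24 arrays and had no call, and its 48 h change in SKMEL28, -0.40 ± 0.27 (limma adjusted p = 0.3), was opposite in sign to those of the brighter pair. FOXO3 has a near-identical pseudogene, FOXO3B, and the sequences of the probes were not used here, so a contribution of its transcript to any FOXO3 probe was not tested.

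FOXO1 in SW1736 had log2 intensities of 6.92, 7.35 and 7.28 at 0 h, 7.12, 6.66 and 6.96 at 1 h, 7.50, 7.25 and 7.32 at 6 h, and 7.90, 7.87 and 7.48 at 48 h. The 48 h arrays lay above the 0 h arrays, with a change of 0.57 ± 0.20 (limma adjusted p = 0.0681). This change passed the threshold with the authors' deposited values (adjusted p = 0.0465) and without background correction (0.0467). It also passed with 1 probe per gene (0.0467) and without the third 48 h array (0.0427). In SKMEL28 it had 5.52, 6.41 and 5.41 at 0 h, 5.73, 5.64 and 5.18 at 1 h, 5.34, 4.95 and 5.13 at 6 h, and 6.10, 5.79 and 5.50 at 48 h. The 48 h and 0 h arrays of SKMEL28 overlapped (0.02 ± 0.26, limma adjusted p = 0.97), and at 6 h 1 of 3 arrays detected the probe (-0.64 ± 0.26, adjusted p = 0.176).

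PIK3IP1, a membrane protein that binds the catalytic subunit of PI3K and lowers its activity, rose late in both lines. In SW1736 its log2 intensities were 7.08, 6.88 and 6.15 at 0 h, 6.54, 6.96 and 7.39 at 1 h, 6.57, 7.51 and 6.77 at 6 h, and 8.84, 8.91 and 8.65 at 48 h. In SKMEL28 they were 4.89, 5.72 and 5.26 at 0 h, 5.05, 5.55 and 5.31 at 1 h, 6.01, 5.75 and 5.34 at 6 h, and 7.50, 7.58 and 7.22 at 48 h. The 6 h and 0 h arrays overlapped in both lines, while every 48 h array exceeded all the others of its line. The 48 h change was 2.10 ± 0.29 in SW1736 (4.28-fold, limma adjusted p = 0.000124) and 2.15 ± 0.23 in SKMEL28 (4.43-fold, adjusted p = 1.24e-05). Most of it came after 6 h: 48 h exceeded 6 h by 1.85 ± 0.29 in SW1736 (adjusted p = 0.000517) and 1.74 ± 0.23 in SKMEL28 (adjusted p = 9.21e-05). The difference between the lines in the 48 h change was -0.05 ± 0.39 (adjusted p = 0.961), with a 95% interval from -0.87 to 0.77.

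The remaining members have been linked to FOXO or nutrient signalling. CCNG2 encodes cyclin G2, an unconventional cyclin linked to cell-cycle arrest and a FOXO target in mouse cells. KLHL24 encodes an adaptor of a Cullin ubiquitin ligase. TRIM63, also called MuRF1, encodes a ubiquitin ligase of muscle atrophy and is a FOXO target in muscle. TXNIP encodes an arrestin-like protein that binds thioredoxin and limits glucose uptake, and its promoter is a target of MondoA. CCNG2, KLHL24 and TXNIP rose in both lines. TRIM63 rose in SKMEL28 and was not detected in SW1736. The promoters of these 4 genes are shown with those of IRS2, which rose in SKMEL28, and of FOXO4 and PIK3IP1, which rose in both lines.

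The sequences are the 250 bases before the annotated start (RefSeq, GRCh38.p14; all 10 genes matched), written 5′ to 3′ on the gene's strand. Capitals mark 7 motifs, each searched on both strands. The forkhead-type letters were GTAAACA, its variant ATAAACA, and the insulin response letters CAAAACA. The E-box letters were CACGTG, with the variant CATGTG, and the M-box, TCATGTG, overlaps the second of these. The paired motif was CACGAG followed, after any 5 bases, by the same letters again. Of the 10 genes, 6 held at least 1 motif in some window and 4 held none (IRS1, FOXO1, FOXO4 and PIK3IP1). The share of all genes with any of the 7 motifs was not counted, and genes with several windows had more chances of a match. The count of 6 is therefore not read as an excess.
CCNG2 chr4:77156957-77157206, plus strand: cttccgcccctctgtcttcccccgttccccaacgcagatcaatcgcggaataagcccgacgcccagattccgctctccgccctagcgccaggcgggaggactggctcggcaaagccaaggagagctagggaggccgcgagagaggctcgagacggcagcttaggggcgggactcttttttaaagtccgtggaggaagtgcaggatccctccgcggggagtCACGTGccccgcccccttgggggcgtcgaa
KLHL24 chr3:183635373-183635622, plus strand: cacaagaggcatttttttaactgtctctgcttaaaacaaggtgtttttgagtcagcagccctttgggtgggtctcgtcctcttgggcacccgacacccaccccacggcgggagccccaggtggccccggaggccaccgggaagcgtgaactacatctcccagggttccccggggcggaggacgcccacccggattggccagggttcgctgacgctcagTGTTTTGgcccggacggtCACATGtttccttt
TRIM63 chr1:26067631-26067880, minus strand: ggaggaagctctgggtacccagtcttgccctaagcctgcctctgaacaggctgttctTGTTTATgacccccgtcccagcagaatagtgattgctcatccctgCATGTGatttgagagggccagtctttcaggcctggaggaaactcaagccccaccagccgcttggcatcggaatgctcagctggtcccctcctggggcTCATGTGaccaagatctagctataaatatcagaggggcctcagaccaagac
TXNIP chr1:145996580-145996829, minus strand: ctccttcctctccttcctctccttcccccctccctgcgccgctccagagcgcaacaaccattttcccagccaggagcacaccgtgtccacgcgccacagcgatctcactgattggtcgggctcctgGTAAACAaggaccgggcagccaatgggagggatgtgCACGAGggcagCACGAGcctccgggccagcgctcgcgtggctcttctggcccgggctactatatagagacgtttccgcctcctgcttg
IRS2 chr13:109786584-109786833, minus strand: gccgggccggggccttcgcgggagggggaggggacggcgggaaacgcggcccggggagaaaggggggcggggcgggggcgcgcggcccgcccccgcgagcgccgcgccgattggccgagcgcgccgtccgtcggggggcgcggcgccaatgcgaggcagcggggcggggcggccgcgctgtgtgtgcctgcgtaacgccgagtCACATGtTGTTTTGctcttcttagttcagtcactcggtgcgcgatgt
FOXO4 chrX:71095601-71095850, plus strand: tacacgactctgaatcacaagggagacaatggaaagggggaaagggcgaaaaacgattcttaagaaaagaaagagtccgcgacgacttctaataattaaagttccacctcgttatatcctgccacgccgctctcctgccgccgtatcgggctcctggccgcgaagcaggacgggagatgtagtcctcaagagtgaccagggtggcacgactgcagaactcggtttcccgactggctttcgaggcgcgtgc
PIK3IP1 chr22:31292535-31292784, minus strand: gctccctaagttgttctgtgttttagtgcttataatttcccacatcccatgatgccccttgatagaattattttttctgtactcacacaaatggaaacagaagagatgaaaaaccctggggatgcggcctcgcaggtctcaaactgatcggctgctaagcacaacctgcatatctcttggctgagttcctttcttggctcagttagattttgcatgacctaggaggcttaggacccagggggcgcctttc
CCNG2 held CACGTG at 30 to 25 bases before its start. KLHL24 held TGTTTTG, the reverse of CAAAACA, at 32 to 26 and CACATG at 14 to 9. TRIM63 held TGTTTAT at 193 to 187, CATGTG at 148 to 143, and TCATGTG at 51 to 45, which contains a further CATGTG. TXNIP held GTAAACA at 124 to 118 and the paired motif at 88 to 72; the window before a second annotated TXNIP start held none. IRS2 held CACATG at 47 to 42 and TGTTTTG at 40 to 34. The FOXO4 window held no motif, nor did either of the 2 overlapping PIK3IP1 windows, of which the upstream one is shown. FOXO3, not shown, held ATAAACA at 234 to 228 in 1 of its 4 windows.

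Among the 35116 promoter windows of the same table, GTAAACA was in 2.98%, ATAAACA in 3.77%, CAAAACA in 4.3%, CACGTG in 6.34%, CATGTG in 9.42% and TCATGTG in 2.52%. The paired CACGAG letters occurred in 2 windows (0.0057%), those of TXNIP and KCTD5. The M-box and the paired letters were searched for after the sequences had been read, and a match describes letters only.

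CCNG2 was, with TXNIP, one of the members called by 6 h in SW1736. By its brightest probe, ILMN_2228732, the SW1736 arrays read 6.57, 6.71 and 6.60 at 0 h, 6.47, 7.30 and 6.98 at 1 h, 7.88, 8.23 and 8.35 at 6 h, and 8.07, 8.21 and 8.29 at 48 h. In SKMEL28 they read 6.28, 6.40 and 6.69 at 0 h, 6.48, 6.67 and 6.03 at 1 h, 7.28, 7.43 and 7.12 at 6 h, and 8.38, 8.0 and 8.16 at 48 h. The 6 h arrays were above the 0 h arrays in both lines; at 48 h SW1736 overlapped its own 6 h arrays, whereas SKMEL28 was higher again. The changes at 6 h were 1.53 ± 0.22 in SW1736 (2.88-fold, limma adjusted p = 0.00114) and 0.82 ± 0.18 in SKMEL28 (1.77-fold, adjusted p = 0.0138). At 48 h they were 1.56 ± 0.22 in SW1736 (adjusted p = 0.000124) and 1.72 ± 0.18 in SKMEL28 (adjusted p = 1.06e-05).

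The 6 h calls of CCNG2 were less firm than those at 48 h: without the third SW1736 arrays the adjusted p in SW1736 was 0.0746, and with median scaling that in SKMEL28 was 0.0707. Leaving out the first or second 0 h array or the second 6 h array of SKMEL28 also placed that call just past the threshold, at 0.0633, 0.0536 and 0.0549. The other CCNG2 probes were dimmer, and neither was called at 6 h in either line. From 0 h to 6 h the mean of ILMN_1747244 went from 5.97 to 6.72 in SW1736, where the arrays overlapped, and from 5.65 to 6.04 in SKMEL28. That of ILMN_1879480 went from 4.90 to 5.25 and from 4.74 to 5.09, with 1 of 3 arrays detecting it at 6 h in each line. ILMN_1747244 was not called at 48 h in SW1736 (0.39 ± 0.34, limma adjusted p = 0.506) and rose in SKMEL28 (1.35 ± 0.27, adjusted p = 0.00169). ILMN_1879480 was detected on no 0 h array and on all 6 arrays at 48 h, which was at least 1.79-fold higher than 0 h in SW1736 (limma adjusted p = 0.0036) and at least 2.46-fold higher in SKMEL28 (adjusted p = 5.29e-06). Such a lower bound sets the brighter group's mean against, on each array of the dimmer group, the higher of the probe's own signal and the lowest signal that counted as detected. The SW1736 call of ILMN_1879480 was lost without the third SW1736 arrays (adjusted p = 0.0635).

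**Figure D3:**
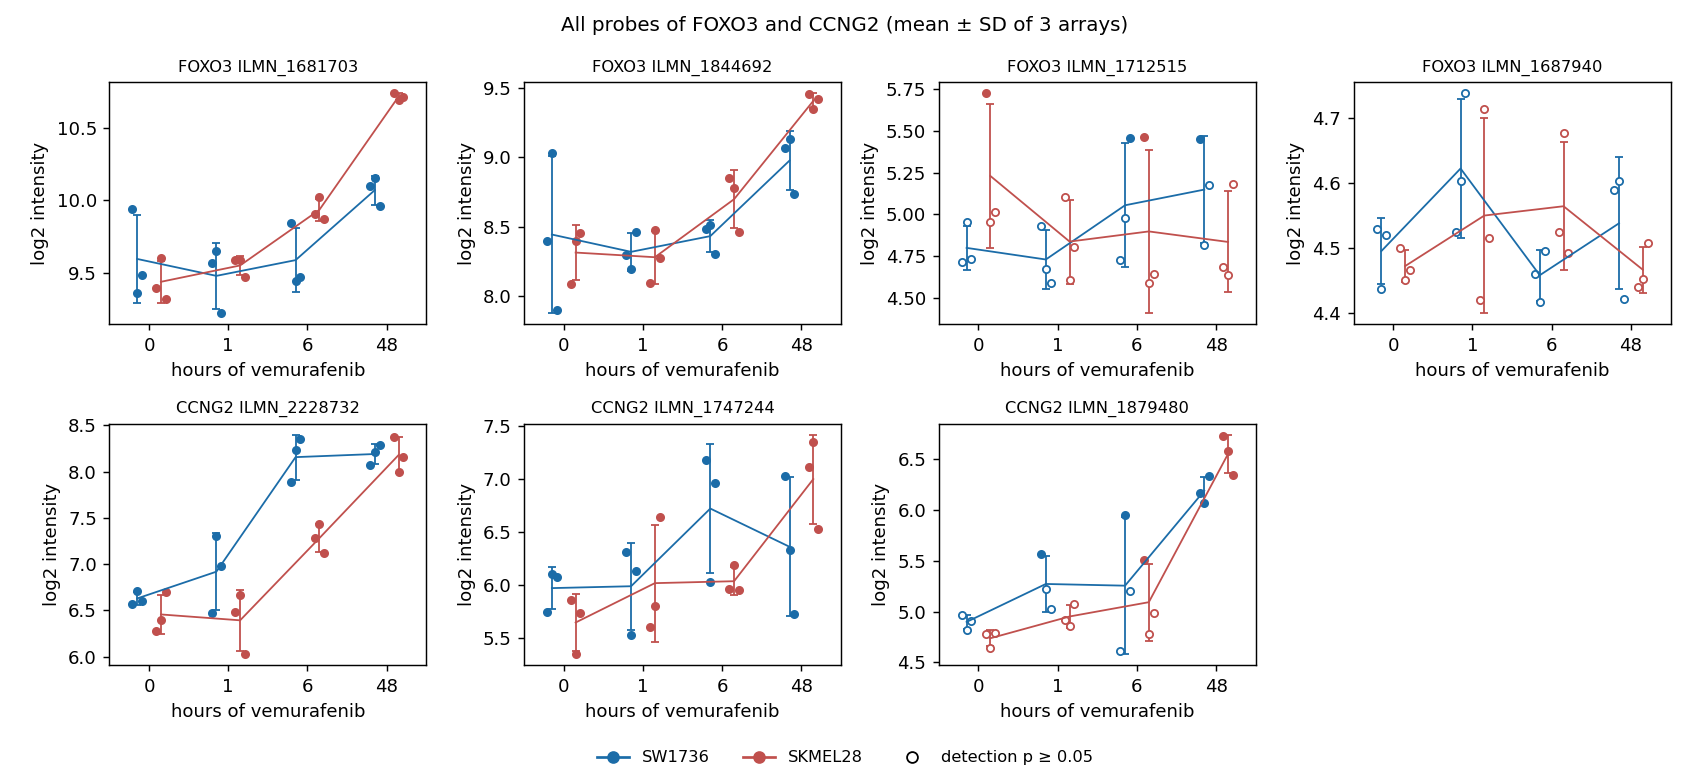
Log2 intensity (y axis, scaled separately in each panel) against hours of vemurafenib (x axis) for the 4 probes of FOXO3 and the 3 probes of CCNG2; points are arrays, lines join means of 3 arrays, bars are SD, and open points have a detection p of 0.05 or more. The 2 brighter FOXO3 probes reached their highest SKMEL28 means at 48 h, the 2 dimmer ones were rarely or never detected, and CCNG2 ILMN_1879480 was detected on all 48 h arrays.

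KLHL24 had the largest measured 48 h change of the 10 genes in SW1736. Its log2 intensities there were 9.08, 8.84 and 8.97 at 0 h, 8.83, 9.21 and 9.21 at 1 h, 9.43, 9.67 and 9.49 at 6 h, and 11.74, 11.69 and 11.50 at 48 h. In SKMEL28 they were 8.84, 8.46 and 9.02 at 0 h, 8.98, 8.76 and 8.71 at 1 h, 9.63, 9.61 and 9.73 at 6 h, and 11.27, 11.43 and 11.27 at 48 h. In both lines the 6 h arrays were above those at 0 h and the 48 h arrays far above both. At 6 h the change was 0.57 ± 0.18 in SW1736 (limma adjusted p = 0.162) and 0.89 ± 0.14 in SKMEL28 (adjusted p = 0.00215), the second reaching 0.0541 with median scaling. The SW1736 change passed the threshold with the authors' deposited values (limma adjusted p = 0.0412), without background correction (0.0413) and with a shared spread (0.0338). At 48 h it was 2.68 ± 0.18 in SW1736 (6.40-fold, adjusted p = 1.73e-07) and 2.55 ± 0.14 in SKMEL28 (5.85-fold, adjusted p = 5.85e-08). The 48 h changes of the lines differed by 0.13 ± 0.23 (adjusted p = 0.794, 95% interval from -0.35 to 0.61).

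TRIM63 was detected on none of the SW1736 arrays and on all 12 SKMEL28 arrays. In SW1736 its values lay between 4.52 and 5.15, all not well above background, so no change can be given there. In SKMEL28 it had log2 intensities of 9.09, 9.05 and 9.08 at 0 h, 8.95, 8.93 and 8.81 at 1 h, 10.18, 10.35 and 10.51 at 6 h, and 11.78, 11.71 and 11.96 at 48 h. The 1 h arrays lay slightly below the untreated ones (-0.18 ± 0.11, limma adjusted p = 0.958), and those at 6 and 48 h were clearly separated above. The changes were 1.27 ± 0.11 at 6 h (2.42-fold, adjusted p = 2.6e-05) and 2.74 ± 0.11 at 48 h (6.69-fold, adjusted p = 5.05e-09), the largest measured 48 h change of the 10 genes in SKMEL28.

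Melanocyte markers were read beside TRIM63 in both lines. The summed linear level of the 7 melanocyte markers stayed between 196 and 252 on every SW1736 array. In SKMEL28 it ranged from 34171 to 35203 at 0 h, 35955 to 40278 at 6 h and 60082 to 62739 at 48 h over the 3 arrays of each time. At 6 h in SKMEL28, 2 of the 7 markers were called higher and 0 lower, with a median change of 0.12. The shares of all probes there were 3.45% and 4.38%. At 48 h, 0 of the 7 were called in SW1736, where 9.29% of all probes were called higher and 9.01% lower. In SKMEL28, 4 were called higher and 1 lower at 48 h, against 19.4% and 18.1% of all probes. In SW1736 the summed fibroblast markers (6 genes) were 6535 to 7593 at 48 h, against 3003 to 3584 at 0 h. Of these 6, 2 were called higher and 0 lower, and the listed markers LUM and PDGFRA were detected on 0 SW1736 arrays. The single measured blood cell marker, CD14, was 454 to 542, against 99.5 to 187, and was called higher. PTPRC, CD3E, HBA1 and HBB were each detected on at most 1 SW1736 array. The part of these markers in the members' changes was not tested.

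TXNIP rose in both lines by 6 h and further by 48 h in SKMEL28. In SW1736 its log2 intensities were 11.24, 11.58 and 11.62 at 0 h, 11.83, 11.35 and 11.79 at 1 h, 12.32, 12.62 and 12.38 at 6 h, and 12.75, 12.67 and 12.51 at 48 h. In SKMEL28 they were 10.29, 10.21 and 10.18 at 0 h, 10.41, 10.53 and 10.51 at 1 h, 11.17, 11.15 and 11.24 at 6 h, and 12.29, 12.15 and 12.20 at 48 h. SKMEL28 stepped up at each time without overlap, the 1 h step of 0.26 ± 0.09 not being called (limma adjusted p = 0.756), whereas in SW1736 the 6 h and 48 h arrays overlapped. At 6 h the change was 0.96 ± 0.20 in SW1736 (adjusted p = 0.0193) and 0.96 ± 0.09 in SKMEL28 (adjusted p = 5.5e-05). At 48 h it was 1.16 ± 0.20 in SW1736 (2.24-fold, adjusted p = 0.000684) and 1.98 ± 0.09 in SKMEL28 (3.96-fold, adjusted p = 1.36e-08). The 6 h call in SW1736 did not hold once arrays were scaled to their medians (adjusted p = 0.134), nor when the third SW1736 arrays were dropped (adjusted p = 0.119). It was also lost without the first 0 h array, the second 6 h array or the third 6 h array, at 0.0960, 0.0863 and 0.0507.

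ARRDC4, a paralogue of TXNIP that is also a MondoA target, was measured beside it. In SW1736 its changes were 0.51 ± 0.32 at 6 h (limma adjusted p = 0.56) and -0.95 ± 0.32 at 48 h (adjusted p = 0.0554). In SKMEL28 ARRDC4 rose by 1.22 ± 0.13 at 6 h (adjusted p = 0.000122) and 1.48 ± 0.13 at 48 h (adjusted p = 3.11e-06), and the difference between the lines at 48 h was -2.43 ± 0.35 (adjusted p = 2.36e-05). Of 4 listed MondoA genes, 3 were tested. The other two, MLX, the partner of MondoA, and MLXIPL, a paralogue of MondoA, had no call at 6 or 48 h in either line. They are named after their values were seen. At 6 h in SKMEL28 the value for MLX was -0.47 ± 0.19 (limma adjusted p = 0.188), opposite in sign to that of ARRDC4. MLXIPL was not detected on any SKMEL28 array at 0 or 6 h.

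The later change was compared directly as 48 h against 6 h. In SW1736, 4 of 14 probes were called higher and 0 lower, against 6.80% and 6.28% of all probes; they were those of IRS1, PIK3IP1 and KLHL24 (2.11 ± 0.18, limma adjusted p = 1.63e-06) and CCNG2 ILMN_1879480 (0.93 ± 0.27, adjusted p = 0.0342). The last was detected on 1 of 3 arrays at 6 h. It was lost without the third SW1736 arrays (adjusted p = 0.232), with a weight per array (0.0656), with no filter on probes (0.0612), with the authors' deposited values (0.0597), without background correction (0.0593) and without any of 5 single arrays: replicate 1 or 3 of 6 h (0.153 and 0.0880) or any of the 3 of 48 h (0.0797, 0.0609 and 0.103). In SKMEL28, 11 of 14 were called higher and 0 lower, against 17.7% and 15.5%; the exceptions were IRS1, FOXO1 and FOXO3 ILMN_1712515. The call of CCNG2 ILMN_1747244 (0.96 ± 0.27, limma adjusted p = 0.0159) was lost without the first or the second 48 h array of SKMEL28, at 0.0528 and 0.0668.

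Whether the lines responded differently was tested as the SW1736 change minus the SKMEL28 change. At 1 h, limma called 0 of 14 probes, against 0.0150% of all, with 0 at an unadjusted p under 0.05. At 6 h, 2 of 14 were called lower in SW1736 and 0 higher, against 1.20% and 1.28% of all probes; at 48 h, 4 were lower and 0 higher, against 6.59% and 7.52%. For 48 h against 6 h, 3 were lower and 1 higher, against 5.62% and 6.43%.

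Those counts include TRIM63, whose SW1736 side was below background on all 12 arrays. Without it, 1 of 13 probes was called lower at 6 h, 3 at 48 h and 2 for 48 h against 6 h, with 0, 0 and 1 called higher. The call at 6 h was IRS2. Its difference was -1.35 ± 0.28 at 6 h (limma adjusted p = 0.00728) and -1.78 ± 0.28 at 48 h (adjusted p = 8.59e-05). With median scaling the 6 h call was lost (adjusted p = 0.0581). No difference is given for TRIM63, since it had no measured change in SW1736.

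At 48 h FOXO3 and TXNIP also rose less in SW1736 than in SKMEL28. The difference for FOXO3 ILMN_1681703 was -0.80 ± 0.22 (limma adjusted p = 0.0137; 0.0746 with median scaling and 0.0669 without the first 0 h array of SW1736), and that for its second probe was -0.56 ± 0.29 (adjusted p = 0.225). The difference for TXNIP was -0.82 ± 0.20 at 48 h (adjusted p = 0.00619; 0.0646 without the third SW1736 arrays) and 0.01 ± 0.20 at 6 h (adjusted p = 0.997). Between 6 and 48 h TXNIP (-0.83 ± 0.20, limma adjusted p = 0.0075) and FOXO4 (-0.94 ± 0.23, adjusted p = 0.00927) had the smaller change in SW1736, and IRS1 the more positive one (1.65 ± 0.40, adjusted p = 0.00702). For IRS1 at 48 h against 0 h the difference of 1.17 ± 0.40 lay at the threshold (adjusted p = 0.0509), and 4 alternative settings and 5 omissions of a single array placed it below. The differences of CCNG2 ILMN_2228732 and ILMN_1747244 for 48 h against 6 h were not called. With the authors' deposited values they were -0.60 and -0.66, with limma adjusted p of 0.0151 and 0.0249, and some other settings also placed them below the threshold.

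**Figure D4:**
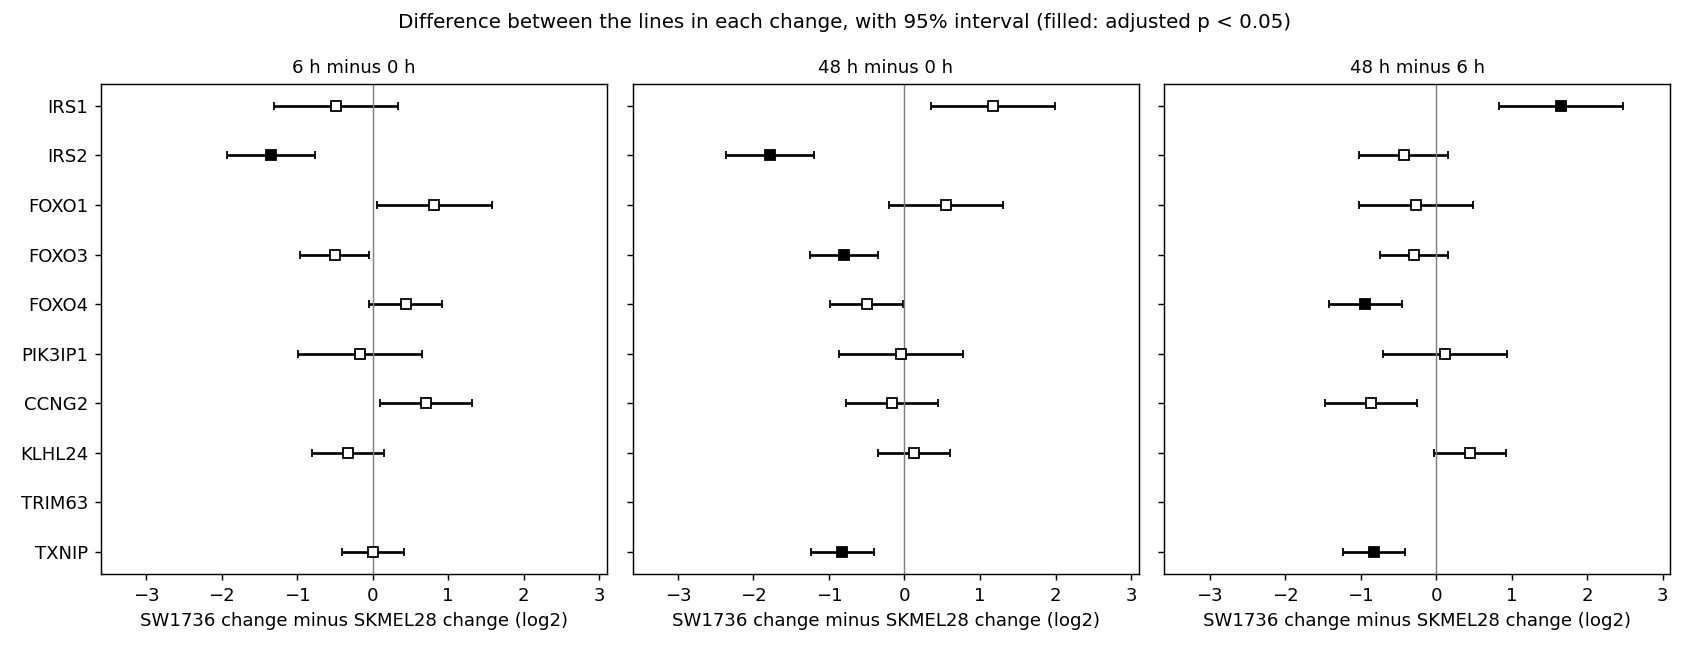
SW1736 change minus SKMEL28 change on the log2 scale (x axis) for the brightest probe of each gene (rows) at 6 h and 48 h against 0 h and at 48 h against 6 h (panels), with 95% intervals; filled squares have a limma adjusted p below 0.05. TRIM63, below background in SW1736, has no point. IRS2 lies left of 0 at 6 h and 48 h, and IRS1 lies right of 0 in the last panel.

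In untreated SW1736 against untreated SKMEL28, 5 of 14 probes were higher and 2 lower, against 19.3% and 20.5% of all probes, so calls between the untreated lines were frequent among probes in general. FOXO1 (1.40 ± 0.26, limma adjusted p = 0.000104), PIK3IP1 (1.42 ± 0.28, adjusted p = 0.000219), TXNIP (1.25 ± 0.14, adjusted p = 1.15e-07), IRS1 (1.23 ± 0.28, adjusted p = 0.000953) and FOXO4 (1.20 ± 0.17, adjusted p = 2.33e-06) were higher in SW1736. IRS2 was lower in SW1736 (-0.98 ± 0.20, limma adjusted p = 0.000298). TRIM63, the other lower call, was undetected in SW1736 and at least 13.3-fold lower. It passed the detection filter only through SKMEL28 arrays, so no p-value is given for it. FOXO3 (0.16 ± 0.15), CCNG2 (0.17 ± 0.21) and KLHL24 (0.19 ± 0.16) were not called, with limma adjusted p between 0.392 and 0.565.

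Other genes of the same pathway were read from lists that hold none of the members. These lists, too, were chosen with earlier results of these data known, so their counts are not a test of an excess. Of 25 listed FOXO target genes, 22 had a tested probe. At 6 h, 2 rose and 0 fell in SW1736, namely CITED2 (1.45 ± 0.21) and BCL6 (1.11 ± 0.18), with a list median of 0.26. In SKMEL28 5 rose, led by SESN1 (0.96 ± 0.15) and BCL2L11 (0.91 ± 0.16), 1 fell, BCL6 (-1.04 ± 0.10), and the median was 0.10. Of all probes, 0.716% were called higher and 1.16% lower at 6 h in SW1736, and 3.45% and 4.38% in SKMEL28. At 48 h, 9 of 22 rose and 1 fell in SW1736 with a median of 0.44, where 9.29% of all probes were called higher and 9.01% lower. In SKMEL28, 9 rose and 3 fell with a median of 0.23, where 19.4% were called higher and 18.1% lower. This list and those below take 1 probe per gene, whereas these shares are over all probes. With 1 probe per gene, 1829 of 13699 were called higher and 1609 lower in SW1736 at 48 h. In SKMEL28 the counts were 3448 and 3104, so the shares per gene were higher in both lines. SW1736 was led at 48 h by BCL6 (2.50 ± 0.18), CITED2 (2.25 ± 0.21) and TNFSF10 (2.15 ± 0.21), which encodes the death ligand TRAIL. SKMEL28 was led by the mitophagy kinase PINK1 (2.14 ± 0.14), the autophagy gene GABARAPL1 (1.85 ± 0.20) and CDKN1B (1.77 ± 0.13), which encodes the cell-cycle inhibitor p27. GADD45A, a stress-response gene, fell in both, with changes of -0.77 ± 0.22 in SW1736 and -1.70 ± 0.11 in SKMEL28.

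BCL6, a transcriptional repressor, was the listed target with the widest gap between lines. Its change in SW1736 exceeded that in SKMEL28 by 2.15 ± 0.19 at 6 h (limma adjusted p = 2.64e-07) and 2.75 ± 0.19 at 48 h (adjusted p = 7.1e-10). Of the 22 tested targets, this difference was called higher for 9 and lower for 4 at 48 h, against 7.52% and 6.59% of all probes. At 6 h it was called higher for 3 and lower for 0, against 1.28% and 1.20%. ERBB3, a receptor that recruits PI3K, changed at 48 h by 0.43 ± 0.24 in SW1736 (adjusted p = 0.261) and 0.32 ± 0.11 in SKMEL28 (adjusted p = 0.0338), and INSR had no tested probe.

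Of 33 listed PI3K and AKT pathway genes, 28 were tested. At 6 h, 1 rose in SW1736, DDIT4 (2.15 ± 0.21), an inhibitor of mTORC1, and 2 rose in SKMEL28, the AKT phosphatase PHLPP1 (0.61 ± 0.17) and SGK3 (0.46 ± 0.11). The shares of all probes called higher at 6 h were 0.716% in SW1736 and 3.45% in SKMEL28. At 48 h, 4 rose and 3 fell in SW1736, with DDIT4 (2.28 ± 0.21) and DEPTOR (1.31 ± 0.28) the largest rises and EIF4EBP1 (-1.04 ± 0.23) the largest fall. In SKMEL28, 11 rose and 5 fell, with TSC1 (1.26 ± 0.17) and PHLPP1 (1.20 ± 0.17) leading the rises and IGF1R (-1.32 ± 0.18) and EIF4EBP1 (-1.13 ± 0.24) the falls. The list medians at 48 h were 0.11 in SW1736 and 0.21 in SKMEL28. Set beside the shares of all probes given for the FOXO targets, the counts at 48 h were near the background in SW1736 in both directions and for the falls in SKMEL28. All 7 genes of 14-3-3 proteins, which hold phosphorylated FOXO in the cytoplasm, were tested; 3 fell and 0 rose at 48 h in each line, where 9.01% of all probes were called lower in SW1736 and 18.1% in SKMEL28, with SFN (-1.81 ± 0.19) the largest fall in SW1736 and YWHAZ (-0.66 ± 0.09) in SKMEL28.

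ERK output genes gave the time course of the inhibited pathway beside these changes. Of 15 tested, 3, 13 and 5 were called lower at 1, 6 and 48 h in SW1736, and 8, 15 and 15 in SKMEL28. In SW1736, 1 was called higher at 48 h, where 9.29% of all probes were. Of all probes, 1.16% and 9.01% were called lower at 6 and 48 h in SW1736, and 4.38% and 18.1% in SKMEL28. At 1 h, 0.0187% were called in either direction in SW1736 and 0.165% in SKMEL28. Their median change at 48 h was -0.53 in SW1736 and -1.54 in SKMEL28.

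Across the 24 arrays, with each line's mean subtracted, the members' levels varied together to differing degrees. The highest Pearson r between members were those of KLHL24 with PIK3IP1 (0.929) and FOXO4 with TXNIP (0.921), and TRIM63 with IRS2 reached 0.873. IRS1 correlated with IRS2 at -0.137. The most similar other genes were EFNB3 for KLHL24 (0.977), BAAT and EDNRB for TRIM63 (0.978 and 0.977), TMEM59 for FOXO4 (0.968), SMAD6 for TXNIP (0.960), CLIP3 for PIK3IP1 (0.942), PIR for CCNG2 (0.938), ARMCX3 for FOXO3 (0.927), RAB27A for IRS2 (0.916), NDFIP2 for IRS1 (0.835) and CDK9 for FOXO1 (0.764). All points share the same arrays and the same 4 times, so these values describe how alike the time courses were. TRIM63 was below background on every SW1736 array. Its r values with IRS2, BAAT and EDNRB therefore describe mainly the SKMEL28 time course.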

How the data were processed

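RNA of 24 samples was measured on Illumina bead arrays; per the labels' protocols it was amplified to biotin-labelled cRNA. The deposited non-normalized table gives a linear signal intensity for each probe and array and, per the file headers, a detection p-value. The authors also deposited a value table, log2 and quantile normalized by its distribution, which was used as an alternative; the submitters' processing notes name Partek. Intensities were corrected with limma 3.58.1 (R 4.3.3; normexp by detection p-value, offset 16), quantile normalized and log2 transformed. Probes with a detection p below 0.05 on at least 3 of 24 arrays were kept (26673). Genes were named from the platform annotation: of 47231 probes, 30113 had 1 symbol, 8 had several and 17110 had none. Changes within a line were fitted on that line's 12 arrays; line differences on all 24, with 1 weight per line. The test was limma's moderated test, Benjamini-Hochberg over 26673 probes, for 13 comparisons, with 3 arrays per group limiting the precision.

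A simulation on 26673 probes drew the noise of each line with its own spread, so it does not test whether the spreads differ. For the 6 h change in SW1736, this fit gave 4.26% false calls among its 94 calls and a spread shared by both lines 32.2% among 171. There this fit recovered a fraction of 0.403 of the simulated 2-fold changes, 0.955 of the 4-fold ones and 0 of the smaller ones. For the 6 h line difference the shares of false calls were 9.76% and 7.5%. Every probe of the 10 genes is reported, led by its brightest; from other lists up to 4 genes per direction with the largest called changes were named, with ERBB3, INSR and DUSP6 always, and the most similar genes were those of highest r. The members and lists were chosen with earlier results of these data known. Alternatives covered background correction, scaling, the deposited values, the probe filter, spread and weights, the replicate number as a block, single arrays, and, chosen after seeing the data, the third SW1736 arrays together. The array files carry no chip or scan labels, so such batches were not analysed here.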

Additional observations from a re-analysis of the deposited data

Results flagged for a closer look

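Each value here is the SW1736 change minus the SKMEL28 change on the log2 scale, set apart because a direct limma test of the difference between the lines passed an adjusted p of 0.05; 7 such differences occurred among probes detected in both lines. The response of IRS2 was smaller at 6 h (-1.35 ± 0.28) and 48 h (-1.78 ± 0.28). FOXO3 differed at 48 h by -0.80 ± 0.22. TXNIP differed by -0.82 ± 0.20 at 48 h and by -0.83 ± 0.20 between 6 and 48 h. FOXO4 differed by -0.94 ± 0.23 between 6 and 48 h, and IRS1 by 1.65 ± 0.40 over the same interval. With 3 arrays per group, no test for a single array standing apart was made.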

How the results depend on the processing

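Across the 14 probes and the comparisons of each kind, the counts of calls were 8 for SW1736 against untreated, 19 for SKMEL28 against untreated, 15 for 48 h against 6 h, 10 for the line difference in response (3 of them TRIM63, which was below background in SW1736) and 7 for the untreated lines. TRIM63 is also among the last 7. Leaving out the third SW1736 arrays together, an alternative chosen after seeing the data, gave 5 for SW1736 against untreated, with fewer arrays in each fit; the cause was not tested. Leaving out single arrays gave 7 to 9, 17 to 19, 14 to 16, 9 to 13, and 7 to 7 calls in the same order. With the replicate number as a block the counts were 8, 19, 16, 10 and 7; the added call was FOXO4 at 48 h against 6 h in SW1736 (0.65, adjusted p = 0.0344, against 0.0708 without the block). In SKMEL28 the deviations of same-numbered arrays had a median correlation of 0.0188, 0.000143 and 0.0248 for numbers 1, 2 and 3. In SW1736 it was 0.0539, 0.0174 and 0.107. For differently numbered arrays it was -0.00655 in SKMEL28 and -0.0366 in SW1736. The third SW1736 arrays did deviate together, at 0.0805 to 0.158, above the highest differently numbered pair of that line (0.0617). The main fit did not take the numbers as pairs, and the counts with a block are those given above. Of 59 called changes and differences, 45 kept their call and direction under every alternative; of 123 that were not called, 111 stayed so, and no called value changed sign. Shared spread, trended prior, and values without background correction added SW1736 calls, for example FOXO4 at 6 h (adjusted p = 0.0133 with a shared spread) and IRS1 at 6 h (0.0120). Signal over background limited IRS1 and FOXO1 in SKMEL28, TRIM63 in SW1736, and the dim probes of FOXO3 and CCNG2.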
